A study of Mus musculus with 12 samples.

Results

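The difference described here is that between the NMDA response of wild-type mouse retina and the NMDA response of retina without JNK3, gene by gene, in bulk RNA-seq. For each gene, the change from PBS to NMDA in JNK3 KO retinas was subtracted from the same change in WT retinas, (WT NMDA - WT PBS) - (JNK3 KO NMDA - JNK3 KO PBS), on the scale log2(FPKM + 0.1). A positive difference thus means that the gene changed more in the upward direction, or fell less, in WT. It was computed for all 16471 genes, of 55487 in the table, whose mean exceeded 1 FPKM in at least 1 of 6 groups. The 8 libraries behind it, of 12 in all, were 2 each of C57BL/6J WT retinas given 1 μL of PBS into the vitreous, WT retinas given 1 μL of 40 mM NMDA in PBS (40 nmol), and *Jnk3*-/- (JNK3 KO) retinas given the same PBS or the same NMDA. Each library was made from RNA of more than 3 pooled retinas. The JNK3 KO allele is present in every cell and throughout development. WT mice of the RNA-seq with shPax6 were 2 months old, but the age of the JNK3 KO mice, the interval between injection and collection, and whether the WT mice were littermates were not given in the sources used here. The replicates are called biological, but which animals were pooled into each was not given, so p-values measure only the spread between these libraries. The other 4 libraries, of retinas infected with an AAV carrying shRNA against *Pax6* (shPax6), entered the choice of genes to test, the estimate of the spread and the range of library totals, but not the difference itself.

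NMDA is an agonist of a class of ionotropic glutamate receptors. Injected into the vitreous it overexcites retinal ganglion cells (RGCs), which send the axons of the optic nerve, and many amacrine cells, and calcium entry then kills them. c-Jun N-terminal kinases (JNKs) are stress-activated kinases at the end of a cascade of MAP3K and MAP2K enzymes. JNK3, encoded by *Mapk10*, is the JNK found mainly in neurons. The best-known JNK targets are c-Jun and ATF2, which dimerise with FOS- and ATF-family proteins to form the transcription factor AP-1. Injured neurons also call in the innate immune system: glia and microglia release chemokines, and neutrophils and monocytes enter from the blood.

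The WT NMDA libraries stood apart from all others, and every value below that involves them carries this. Their FPKM summed to 805600 and 820200, against 541200 to 576900 in the other 10 libraries. The mean spliced length of their transcripts, weighted by FPKM, was 1388 and 1367 bases, against 1877 to 2008. Cytosolic ribosomal protein genes took 17.3% and 17.7% of the summed FPKM, against 5.72 to 8.07%, and genes of mitochondrial DNA 3.02% and 2.98%, against 5.91 to 10.2%. The shift toward short transcripts and the WT NMDA group cannot be told apart, because both libraries of the group show it and without them the difference has no value. A correction that takes out each library's own trend on spliced length was therefore also applied, and its values are called length-corrected. A called gene named below for its difference was still called in the same direction after this correction unless its loss is stated. The retina's own genes were high in all 8 libraries: *Gngt1*, a transducin subunit of rods, lay between 694 and 1911 FPKM and *Glul*, the glutamine synthetase of Müller glia, between 164.3 and 279.4. Of the tissues beside the retina, the corneal keratin *Krt12* reached at most 0.32 FPKM and *Rpe65* of the pigment epithelium 0.57 to 2.91, while the lens gene *Cryaa* lay at 41.7 to 79.3. For *Mapk10* itself the values were 42.8 and 50.7 FPKM in WT PBS, 8.98 and 6 in WT NMDA, 9.47 and 8.75 in JNK3 KO PBS and 6.65 and 13.8 in JNK3 KO NMDA. JNK3 KO PBS libraries thus lay below WT PBS by 2.34 on the log2 scale, and reads were still assigned to the gene there.

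NMDA moved far more genes in WT than in JNK3 KO retinas. A gene was called when its adjusted p in limma's test was under 0.05, its difference exceeded 1 on the log2 scale and a group compared had a mean above 1 FPKM. In WT 5655 genes were called (34.3%), 2338 up (14.2%) and 3317 down (20.1%). In JNK3 KO 419 were called (2.54%), 128 up (0.777%) and 291 down (1.77%). The difference between the responses was called for 5819 genes (35.3%), higher in WT for 2546 (15.5%) and lower for 3273 (19.9%). Under PBS the genotypes differed in 38 genes (0.231%), and under NMDA in 5475 (33.2%). Leaving out 1 JNK3 KO library at a time, with the lone library assumed to vary like the other groups, left 207 to 247 calls in the JNK3 KO response. After length correction the difference was called for 2866 of 16452 genes (17.4%), 1394 higher (8.47%) and 1472 lower (8.95%). Of these, 2156 were among the 5819 (37.1% of them), and 6 genes of the 5819 were called in the opposite direction. The split by direction depended on the scale: 43.8% of the calls were higher as deposited, but 17.4% after rescaling to TPM and 34.1% after division by the 75th percentile, which moved the median of all genes from -0.03 to -0.61 and -0.23. Directions below are on the deposited scale unless another is named.

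Most of the called genes were ones that moved in WT alone. Of the 2546 higher genes, 1899 (74.6%) rose in WT and were not called in JNK3 KO, and 486 (19.1%) were called in neither response. A smaller group of 104 (4.08%) fell in JNK3 KO with no call in WT, and 42 (1.65%) rose in WT and fell in JNK3 KO. Of the 3273 lower genes, 2672 (81.6%) fell in WT alone, 29 rose in JNK3 KO alone, and 26 fell in WT and rose in JNK3 KO. Across the genes tested, Pearson's r between the responses of the 2 genotypes was -0.064, and 0.021 after length correction, over genes that are not independent replicates. Of the genes that did respond in JNK3 KO, less than 40% moved the same way in WT: 50 of the 128 that rose (39.1%) also rose in WT and 26 (20.3%) fell there, while 92 of the 291 that fell (31.6%) also fell in WT and 42 (14.4%) rose.

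Spliced length went with the difference over the whole table. Genes under 1 kb had a median difference of 1.24, those of 1 to 2 kb 0.68, those of 2 to 4 kb -0.29 and those over 4 kb -1.30. Of the genes under 1 kb 35.3% were called higher and 3.39% lower, and of those over 4 kb 0.533% higher and 59.2% lower. The WT response followed the trend, with medians of 1.03 under 1 kb and -1.17 over 4 kb, while those of the JNK3 KO response were -0.11 and 0.16. The length-corrected medians of all gene lists with at least 5 genes stand in the plot of list medians.

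**Figure D1:**
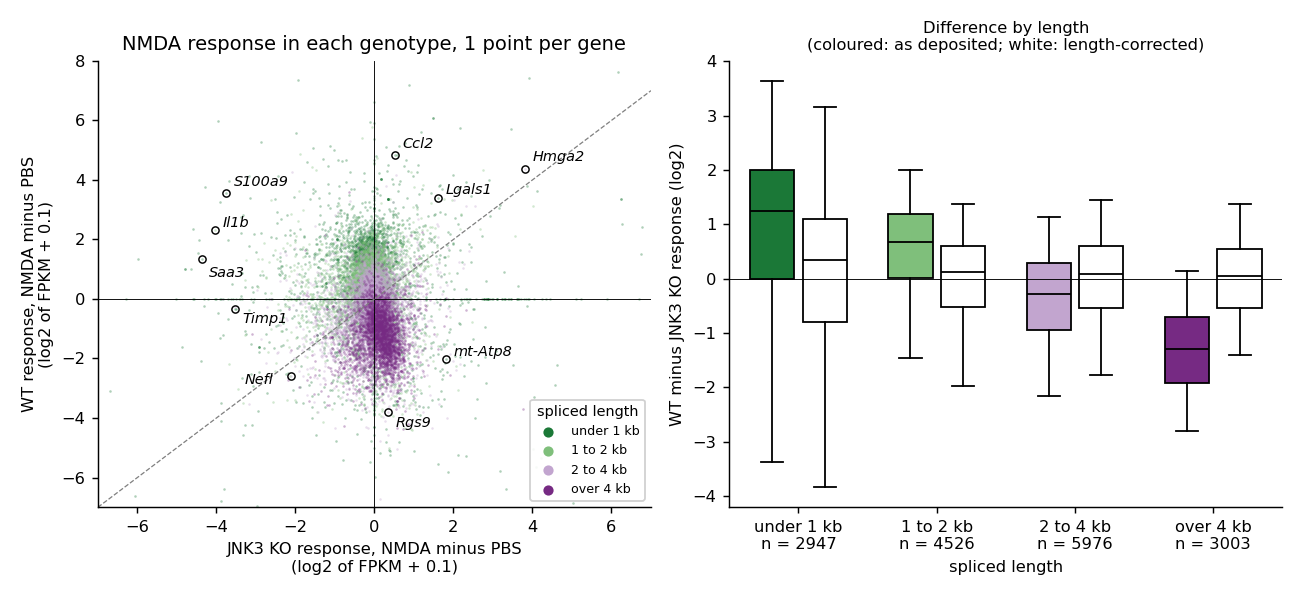
Left, the NMDA response of WT (vertical) against that of JNK3 KO (horizontal), log2 of FPKM + 0.1, 1 point per gene, coloured by spliced length; the dashed line marks equal responses. Right, the difference by length class, boxes from the 25th to the 75th percentile and whiskers from the 5th to the 95th, as deposited (coloured) and length-corrected (white): the medians run from 1.24 under 1 kb to -1.30 over 4 kb as deposited.

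Genes of neutrophils showed the largest difference of all 55 gene lists examined. Most of them rose in WT, fell in JNK3 KO, or both. Of the 16 neutrophil genes tested, 14 (87.5%) were called higher, against 15.5% of all genes, and none lower, with a median difference of 4.19 (4.04 length-corrected, and 2.32 to 4.69 over all scales and settings tried). In WT 10 of them rose after NMDA, and in JNK3 KO 8 fell. Their summed level was 256 and 281 FPKM in WT PBS, 2068 and 2108 in WT NMDA, 188 and 202 in JNK3 KO PBS and 20.6 and 22.6 in JNK3 KO NMDA. The JNK3 KO NMDA libraries were thus the lowest of the 8 and the WT NMDA libraries the highest. In whole tissue, fewer cells of a type and less RNA per cell cannot be told apart.

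The S100 proteins A8 and A9 make up calprotectin, the most abundant protein of neutrophil cytosol. *S100a9* was listed at 92.9 and 99.6 FPKM in WT PBS, 1146 and 1115 in WT NMDA, 70.7 and 76.1 in JNK3 KO PBS and 4.34 and 6.61 in JNK3 KO NMDA. The difference was 7.30 (SE 0.24, adjusted p = 2.6e-07), from a rise of 3.55 in WT and a response of -3.75 in JNK3 KO. *S100a8* followed it, with 92.6 and 108 FPKM in WT PBS, 645 and 721 in WT NMDA, 57.3 and 65.6 in JNK3 KO PBS and 6.42 and 5.29 in JNK3 KO NMDA, a difference of 6.14 (SE 0.25, adjusted p = 4.1e-07). For both genes the NMDA libraries lay outside all PBS libraries, above them in WT and below them in JNK3 KO. Inflammatory genes of other lists had the same pattern. *Il1b*, which encodes the cytokine interleukin-1β, was listed at 15.9 and 18.6 FPKM in WT PBS, 89.7 and 82 in WT NMDA, 14.9 and 13 in JNK3 KO PBS and 0.86 and 0.67 in JNK3 KO NMDA, a difference of 6.34 (SE 0.49, adjusted p = 8.5e-06). *Saa3*, an acute-phase apolipoprotein, was listed at 107 and 122 FPKM in WT PBS, 261 and 317 in WT NMDA, 56.7 and 51.5 in JNK3 KO PBS and 2.4 and 2.64 in JNK3 KO NMDA, a difference of 5.70 (SE 0.55, adjusted p = 3.2e-05). Back in the neutrophil list, *Wfdc21*, a small secreted protein gene, was at 6.48 and 6.94 FPKM in WT PBS, 32.5 and 37.6 in WT NMDA, 4 and 3.29 in JNK3 KO PBS and 0.14 and 0 in JNK3 KO NMDA.

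Another set of neutrophil genes differed through JNK3 KO alone. *Csf3r*, the receptor for granulocyte colony-stimulating factor, was listed at 18.2 and 18.9 FPKM in WT PBS, 17 and 14.2 in WT NMDA, 20.1 and 19.1 in JNK3 KO PBS and 1.86 and 1.4 in JNK3 KO NMDA. Its WT response was -0.26 and its JNK3 KO response -3.52, a difference of 3.26 (SE 0.33, adjusted p = 4.1e-05). *Cxcr2*, the receptor through which neutrophils sense CXCL1 and CXCL2, behaved likewise, with 6.03 and 5.69 FPKM in WT PBS, 6.42 and 5.33 in WT NMDA, 6.3 and 7.59 in JNK3 KO PBS and 0.41 and 0.36 in JNK3 KO NMDA. The WT NMDA libraries overlapped the PBS libraries for *Cxcr2* and lay just below them for *Csf3r*, and the JNK3 KO NMDA libraries lay far below all others. *Retnlg*, a resistin-like protein, showed the reverse and was high in WT NMDA alone, with 2.09 and 3.2 FPKM in WT PBS and 129 and 128 in WT NMDA, and with all JNK3 KO libraries between 0.09 and 1 FPKM. Genes of erythrocytes moved with them. *Hbb-bs*, a beta globin of erythrocytes, was listed at 50.02 and 53.3 FPKM in WT PBS, 301 and 301 in WT NMDA, 66 and 58.2 in JNK3 KO PBS and 34.2 and 35.1 in JNK3 KO NMDA, and 4 of 6 erythrocyte genes were called higher, with a median difference of 3.39 (2.46 length-corrected). The part of blood content in the neutrophil result was not tested.

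Chemokines, the secreted signals that draw leukocytes, were higher in WT as well. Of 28 chemokine and receptor genes tested, 13 (46.4%) were called higher and none lower, with a median difference of 1.27 (0.83 length-corrected). In WT 11 rose and 2 fell, and in JNK3 KO 1 rose and 8 fell. *Ccl2*, which attracts monocytes through CCR2, was listed at 4.61 and 4.39 FPKM in WT PBS, 138 and 126 in WT NMDA, 5.23 and 5.38 in JNK3 KO PBS and 7.03 and 8.41 in JNK3 KO NMDA. The difference was 4.32 (SE 0.44, adjusted p = 4.2e-05), and the JNK3 KO response of 0.53 was not called. *Cxcl2*, a neutrophil attractant, was at 0.98 and 1.37 FPKM in WT PBS, 36 and 36.9 in WT NMDA, 1.56 and 0.37 in JNK3 KO PBS and 0.24 and 0.07 in JNK3 KO NMDA, a difference of 6.74 (SE 0.81, adjusted p = 1.1e-04). Its neighbours *Cxcl1* and *Cxcl3* gave 4.69 and 6.00, with WT NMDA libraries at 6.41 and 5.33 FPKM and at 19.6 and 18.6. The other libraries lay at 1.85 FPKM or below for these 3 genes, and 1 JNK3 KO NMDA library was listed at 0 for *Cxcl3*. The sizes therefore rest in part on the pseudocount, and with a pseudocount of 1 they were 2.88 for *Cxcl1*, 4.81 for *Cxcl2* and 3.86 for *Cxcl3*. *Ccl3* and *Ccl7* differed by 3.356 and 3.43. In all 6 the WT NMDA libraries lay above the other 6 libraries, which did not exceed 8.41 FPKM for any of them. *Ccl5*, in contrast, was already present under PBS and moved apart in both directions, with 17.3 and 16.5 FPKM in WT PBS, 47.2 and 46.4 in WT NMDA, 15.2 and 9.57 in JNK3 KO PBS and 2.97 and 1.29 in JNK3 KO NMDA. Not all members were called: *Cx3cl1*, the neuronal ligand of microglia, differed by -0.23 (95% confidence interval -0.71 to 0.25), and *Cxcl12* by 0.43 (95% confidence interval 0.01 to 0.85). The interval of *Cxcl12* lay above 0, in the direction of the list, and excludes a difference of 1.

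*Cxcl1*, *Cxcl2* and *Cxcl3* lie side by side on chromosome 5 and rose together in WT, so their promoters are shown. Each line gives 250 bases before to 50 after the annotated start (RefSeq, GRCm38.p6, plus strand, 5′ to 3′), at chr5:90890995-90891294, chr5:90903649-90903948 and chr5:90785851-90786150 in that order. Capitals mark the NF-kB letters, GGGA then any base then TTTCC, searched on both strands.
Cxcl1: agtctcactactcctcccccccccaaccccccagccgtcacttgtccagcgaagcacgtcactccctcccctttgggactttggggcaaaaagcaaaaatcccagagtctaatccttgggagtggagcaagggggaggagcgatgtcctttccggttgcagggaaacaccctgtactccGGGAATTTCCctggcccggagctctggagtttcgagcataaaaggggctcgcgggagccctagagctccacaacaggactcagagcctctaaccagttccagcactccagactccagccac
Cxcl2: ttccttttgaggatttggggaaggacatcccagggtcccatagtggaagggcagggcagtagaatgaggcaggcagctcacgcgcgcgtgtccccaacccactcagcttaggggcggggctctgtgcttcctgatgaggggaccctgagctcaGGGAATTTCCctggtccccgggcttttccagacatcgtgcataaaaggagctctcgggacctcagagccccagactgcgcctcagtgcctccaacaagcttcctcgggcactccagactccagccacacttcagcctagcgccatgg
Cxcl3: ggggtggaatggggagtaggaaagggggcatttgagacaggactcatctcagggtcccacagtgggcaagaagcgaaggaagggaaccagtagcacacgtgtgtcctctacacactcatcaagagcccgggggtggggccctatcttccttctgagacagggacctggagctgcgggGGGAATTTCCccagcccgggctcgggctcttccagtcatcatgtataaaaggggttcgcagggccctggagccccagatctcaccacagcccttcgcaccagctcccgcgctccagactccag
The match begins 71, 97 and 73 bases before the start, and reads GGGAATTTCC in all 3. These letters occur in 0.466% of all 27025 promoter windows of this length. Of the 21 chemokine list promoters found 3 hold them, and these are the 3 shown. By class the letters occur in 0.773% of higher genes, 0.547% of lower genes and 0.51% of genes not called, against 0.562% of all genes tested. This motif was looked at after the values were seen. The AP-1 letters TGANTCA, in turn, occur in 6.44% of the promoters of higher genes (125 of 1940) and in 5.56% of those of lower genes (132 of 2376). They occur in 6.44% of those of genes not called, against 6.26% of those of all genes tested and 8.97% of all windows, which include genes not tested. The CRE letters TGACGTCA occur in 3.87% of higher and 3.7% of lower genes, against 3.52% of all genes tested. A match of letters is a description of the sequence and not a site of binding.

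Genes of monocytes and macrophages, of microglia and of antigen presentation also lay higher in WT as deposited, but less so, and fewer were called higher after length correction. Among 19 genes of infiltrating monocytes and macrophages 7 were called higher and 1 lower, with a median of 0.44 (-0.10 on the TPM scale, 0.80 length-corrected). *Cd14*, the co-receptor for bacterial lipopolysaccharide, was listed at 6.28 and 6.91 FPKM in WT PBS, 57.5 and 62.3 in WT NMDA, 4.72 and 4.37 in JNK3 KO PBS and 2.37 and 2.44 in JNK3 KO NMDA, a difference of 4.05 (SE 0.38, adjusted p = 2.8e-05). *Clec4d*, a C-type lectin receptor of myeloid cells, was at 7.02 and 7.1 FPKM in WT PBS, 19.1 and 28.2 in WT NMDA, 4.88 and 8.99 in JNK3 KO PBS and 1.47 and 1.07 in JNK3 KO NMDA. *Ly6c2*, which marks classical monocytes, went the other way with -1.58 (SE 0.32, adjusted p = 0.0028), but it shares reads with a near-identical neighbour. Its WT PBS libraries also lay above those of JNK3 KO PBS, by 1.85 (called). Under NMDA WT minus JNK3 KO was 0.27 for this gene, not called. Of 18 homeostatic microglia genes 5 were higher (3 after length correction) and none lower, led by *Selplg* at 3.45 (SE 0.21, adjusted p = 2.6e-06) and *Tyrobp* at 2.90 (SE 0.17, adjusted p = 1.9e-06). The responses of *Selplg* were 0.72 in WT, not called, and -2.73 in JNK3 KO, and those of *Tyrobp* 1.75 and -1.15. Which cells this RNA came from was not tested. *Tmem119*, a marker of resting microglia, fell in both genotypes, by 1.44 in WT and by 1.35 in JNK3 KO on the log2 scale, with a difference of -0.082 (95% confidence interval -1.11 to 0.95). Its values were low, between 0.28 and 1.35 FPKM in the 8 libraries. Among 20 genes of disease-associated microglia, 9 were higher (45%, against 15.5% of all genes) and 2 lower. After length correction 2 were higher and 0 lower, where 8.47% of all genes were higher, and the median went from 0.95 to 0.295. In this list 8 rose in WT and 4 in JNK3 KO. *Lgals3*, galectin-3, rose in both genotypes, with 11.1 and 13.8 FPKM in WT PBS, 124 and 130.3 in WT NMDA, 16.7 and 15.7 in JNK3 KO PBS and 57.9 and 53.2 in JNK3 KO NMDA, and more so in WT by 1.59 (SE 0.16, adjusted p = 4.7e-05), which length correction brought to 0.70, not called.

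Antigen presentation followed the short-gene trend in part. Of 20 MHC and antigen presentation genes 13 were higher, with a median of 1.23, and 6 after length correction, with a median of 0.63. *Psmb10*, an immunoproteasome subunit, led with 152 and 166 FPKM in WT NMDA against 28.6 and 25.4 in WT PBS and 29.6 to 33.1 in the JNK3 KO libraries, a difference of 2.47 (SE 0.22, adjusted p = 2.1e-05). In the NF-kB list, 9 of 19 subunits and feedback targets were higher and 2 lower, and after length correction 8 and none. *Relb*, a subunit that NF-kB itself induces, was at 2.56 and 3.1 FPKM in WT PBS, 11.3 and 12.2 in WT NMDA, 3.52 and 2.93 in JNK3 KO PBS and 3.23 and 3.3 in JNK3 KO NMDA, a difference of 1.998 (SE 0.25, adjusted p = 1.6e-04). *Icam1*, an adhesion molecule for leukocytes, differed by 2.52 (SE 0.29, adjusted p = 9.4e-05) and *Tnf* by 2.71 (SE 0.60, adjusted p = 0.0043). The subunits *Rela* and *Nfkb1*, whose proteins are held in the cytoplasm until a signal frees them, gave 0.38 (95% confidence interval -0.12 to 0.89) and -0.019 (95% confidence interval -0.47 to 0.43). Complement (5 higher, 2 lower of 18) and interferon-stimulated genes (6 higher, 5 lower of 33) showed no common direction. In the interferon list *Irf7* was higher by 2.01 while *Rsad2* was at -1.996. For *Rsad2* the genotypes already differed under PBS, with WT above JNK3 KO by 1.84 (called). Under NMDA WT minus JNK3 KO was -0.16, not called. Of 14 inflammasome and necroptosis genes 4 were higher, and the largest was *Il1b*. The median of the NF-kB list was 1.02, and 0.92 after length correction.

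**Figure D2:**
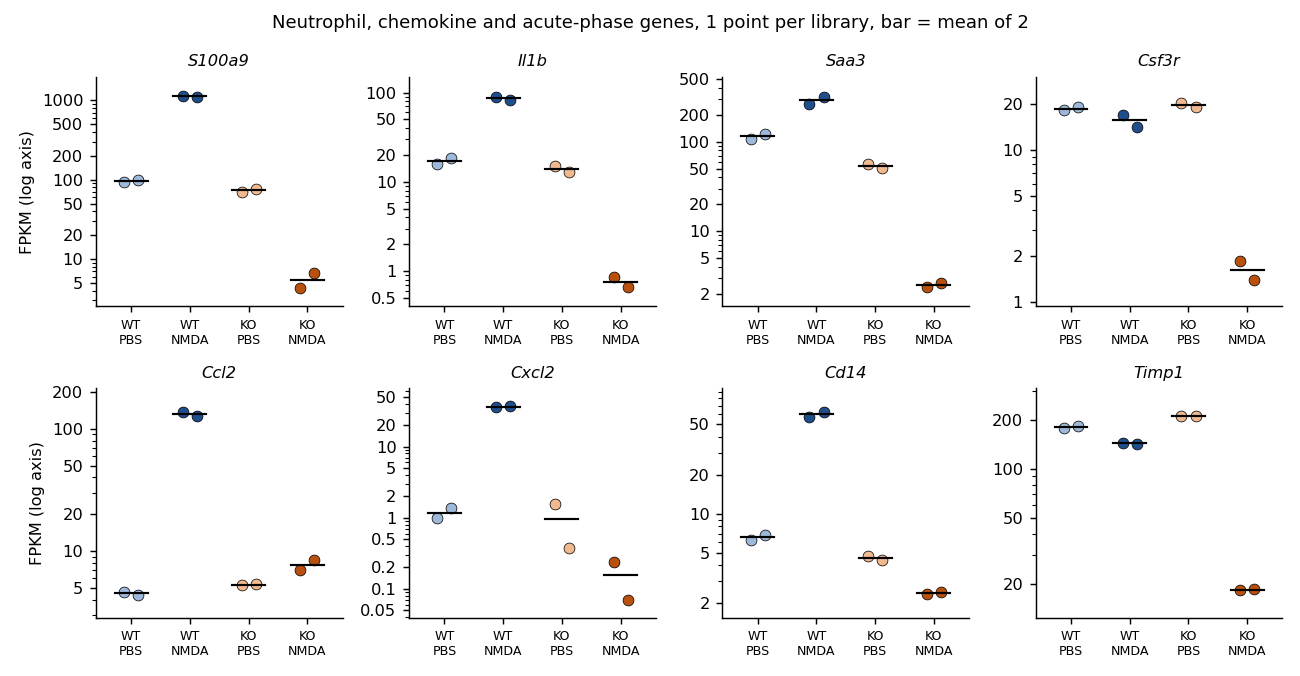
FPKM on log axes of 8 immune genes in the 8 libraries, with WT in blue and JNK3 KO (KO) in orange, paler for PBS; each point is a library and each bar the mean of 2. *S100a9*, *Il1b*, *Saa3*, *Cd14* and *Cxcl2* lie highest in WT NMDA and lowest in JNK3 KO NMDA, *Ccl2* is high in WT NMDA alone, and *Csf3r* and *Timp1* are low in JNK3 KO NMDA alone.

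Genes of the JNK cascade itself were lower or not called, with 1 exception. Of 24 genes for JNKs, their upstream kinases, scaffolds and phosphatases, 12 were lower, 1 higher and 11 not called. The WT response called 11 of them down. In JNK3 KO limma called 0, and 7 had an unadjusted p under 0.05. The list's median was -1.02, and 0.069 after length correction, when 4 were still lower. *Mapk10* itself had a difference of -2.72 (SE 0.51, adjusted p = 0.0017), and the WT NMDA libraries overlapped those of the knockout. It is the gene knocked out, so its difference follows from the WT values and is no measure of dependence on JNK3. Both the 12 lower genes and the 4 still lower include it. *Mapk8*, for JNK1, was listed at 25.8 and 27.1 FPKM in WT PBS, 6.62 and 8.18 in WT NMDA, 24 and 25.8 in JNK3 KO PBS and 29.3 and 30.8 in JNK3 KO NMDA, a difference of -2.10 (SE 0.17, adjusted p = 1.3e-05), and -1.44 length-corrected. *Mapk9*, for JNK2, was at 48.2 and 45.4 FPKM in WT PBS, 15 and 18 in WT NMDA, 37.1 and 38.8 in JNK3 KO PBS and 35.3 and 34.7 in JNK3 KO NMDA, a difference of -1.39 (SE 0.16, adjusted p = 9.0e-05) that length correction brought to -0.78, no longer called. *Dusp4*, a nuclear phosphatase that switches MAP kinases off, gave the largest difference, with 12.2 and 13.8 FPKM in WT PBS, 1.53 and 2.01 in WT NMDA, 9.7 and 9.87 in JNK3 KO PBS and 9.61 and 9.22 in JNK3 KO NMDA, or -2.77 (SE 0.21, adjusted p = 8.7e-06). *Spag9*, a JNK scaffold, was at -2.08 and *Map3k1*, a kinase at the top of the cascade, at -1.91, but both lost the call after length correction, at -0.49 and -0.42. *Dusp1*, an early-induced phosphatase, was the 1 higher member at 1.04 (SE 0.20, adjusted p = 0.0019), which fell to 0.84 and lost its call without WT NMDA replicate 1, and was 0.65 and not called after length correction. *Map3k12*, the dual leucine zipper kinase that starts the JNK signal in injured axons, differed by -0.67 (95% confidence interval -1.11 to -0.23) and was not called. *Map2k1*, *Map2k6* and *Rps6ka1*, of the sister MAP kinase routes, were not called either, with -0.52, -0.52 and 0.34. *Pax6*, the eye transcription factor of the same study, was listed at 173 and 177 FPKM in WT PBS, 55.4 and 53.8 in WT NMDA, 187 and 191 in JNK3 KO PBS and 129 and 138 in JNK3 KO NMDA, a difference of -1.18 (SE 0.097, adjusted p = 1.3e-05).

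Among AP-1 genes, *Jun* and *Fos* were not called, and *Junb* and *Atf3* were. *Jun* was listed at 23.1 and 22.1 FPKM in WT PBS, 23.3 and 21.8 in WT NMDA, 23.8 and 23.2 in JNK3 KO PBS and 25 and 25.4 in JNK3 KO NMDA, a difference of -0.10 (95% confidence interval -0.38 to 0.17). *Fos* gave 0.038 (95% confidence interval -0.38 to 0.45). Both intervals exclude a difference of 1. Of 14 AP-1 genes 4 (28.6%) were higher and 1 lower, with a median of 1.09 (0.87 length-corrected, when 2 were higher and 0 lower). *Junb* was listed at 48.1 and 48.3 FPKM in WT PBS, 173 and 141 in WT NMDA, 52 and 50.2 in JNK3 KO PBS and 61.4 and 59.4 in JNK3 KO NMDA, a difference of 1.45 (SE 0.13, adjusted p = 2.0e-05) that was still called after length correction, at 1.13. Over 21 alternative settings it ran from 0.759 to 1.6, and the call was kept in 18. *Atf3*, the factor best known from axon injury, was at 18.7 and 16.2 FPKM in WT PBS, 46.9 and 42 in WT NMDA, 27.7 and 28.1 in JNK3 KO PBS and 32.3 and 34.8 in JNK3 KO NMDA, a difference of 1.08 (SE 0.16, adjusted p = 4.2e-04). That call was lost without WT PBS replicate 2 (0.97) or WT NMDA replicate 1 (1.00) and after length correction (0.87), among other settings. Over 21 alternative settings the difference of *Atf3* ran from 0.459 to 1.18, and the call was kept in 13. WT minus JNK3 KO was already -0.68 under PBS for this gene and was 0.40 under NMDA, neither of them called. *Fosl1*, for FRA1, rose in both genotypes, with 0.48 and 0.76 FPKM in WT PBS, 13.2 and 15.1 in WT NMDA, 0.89 and 1.31 in JNK3 KO PBS and 7.6 and 8 in JNK3 KO NMDA. Its difference of 1.59 did not pass the test (95% confidence interval -0.0063 to 3.19). *Atf2* was the lower member, at -1.29 (SE 0.20, adjusted p = 6.1e-04), and length correction brought it to -0.75, not called.

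Part of the stress and death genes rose in WT, and fewer were called in JNK3 KO, where few genes of any kind were called. In the integrated stress response, by which cells that halt translation raise ATF4, 8 of 23 genes rose in WT and 2 in JNK3 KO. Of all genes 14.2% rose in WT and 0.777% in JNK3 KO. The difference was higher for 7 (30.4%) and lower for 1, with a median of 0.44 (-0.15 on the TPM scale). After length correction it was higher for 4 and lower for 1. *Ddit3*, for the death-promoting factor CHOP, was listed at 51.9 and 54.6 FPKM in WT PBS, 210.5 and 236 in WT NMDA, 72.4 and 60.9 in JNK3 KO PBS and 66.5 and 66.7 in JNK3 KO NMDA, a difference of 2.06 (SE 0.12, adjusted p = 2.2e-06), and 1.04 length-corrected. *Ppp1r15a*, for the phosphatase subunit GADD34, differed by 1.60 (SE 0.21, adjusted p = 1.9e-04), and *Cebpb* by 1.88 (SE 0.46, adjusted p = 0.0073). *Phgdh*, the first enzyme of serine synthesis, rose in both genotypes, from 7.43 and 4.04 to 25.3 and 23.3 FPKM in WT and from 7.26 and 6.12 to 21.3 and 17.9 in JNK3 KO. *Aldh1l2*, a mitochondrial folate enzyme, was the lower member at -2.85 (SE 0.46, adjusted p = 7.4e-04).

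The p53 and GADD45 list was split, with 7 higher (26.9%, against 15.5% of all genes) and 3 lower of 26. Its median was 0.34 (-0.25 on the TPM scale). After length correction 2 were higher and 1 lower, where 8.47% of all genes were higher and 8.95% lower. *Gadd45b*, a stress-induced regulator of p38 and JNK signalling, was listed at 43.6 and 45.9 FPKM in WT PBS, 159 and 151 in WT NMDA, 48.6 and 47.4 in JNK3 KO PBS and 55.7 and 57.2 in JNK3 KO NMDA, a difference of 1.56 (SE 0.086, adjusted p = 1.4e-06), and 0.76 length-corrected. Its relatives followed, *Gadd45a* with 1.54 (SE 0.21, adjusted p = 2.3e-04) and *Gadd45g* with 2.23 (SE 0.19, adjusted p = 1.6e-05). Length correction brought these to 0.62 and 1.29, and of the 3 only *Gadd45g* was still called after length correction. *Trp53inp1*, a p53 target that promotes autophagy and death, moved in opposite directions in the genotypes, with 6.89 and 6.64 FPKM in WT PBS, 1.98 and 1.84 in WT NMDA, 5.09 and 5.39 in JNK3 KO PBS and 11.2 and 10.9 in JNK3 KO NMDA. Its difference was -2.84 (SE 0.18, adjusted p = 2.7e-06).

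*Bax*, which forms pores in the mitochondrial outer membrane, was listed at 34 and 41.1 FPKM in WT PBS, 118 and 113 in WT NMDA, 44.6 and 45.3 in JNK3 KO PBS and 47.4 and 41.8 in JNK3 KO NMDA. WT NMDA libraries lay above the other 6, and the JNK3 KO groups overlapped, with a difference of 1.64 (SE 0.19, adjusted p = 9.3e-05). After length correction it was 0.62 and not called. *Bad*, which antagonises BCL-XL, gave 1.32 (SE 0.27, adjusted p = 0.0028), which fell to 1.00 and lost its call without JNK3 KO PBS replicate 1, and was 0.33 and not called after length correction. Of the 12 pro-apoptotic BCL2 genes 3 were higher (25%, against 15.5% of all genes) and 1 lower, and after length correction 1 was higher and 2 were lower. The gene lower as deposited was *Bnip3l*, which marks mitochondria for removal, at -1.48 (SE 0.18, adjusted p = 1.1e-04). Of 18 caspase and apoptosome genes 3 were higher (16.7%, near the 15.5% of all genes) and 1 lower, with a median of 0.34 (-0.25 on the TPM scale). After length correction 4 of these were higher and 2 lower. *Cycs*, cytochrome c, was listed at 37.7 and 34.8 FPKM in WT PBS, 86 and 63.6 in WT NMDA, 45.1 and 49.5 in JNK3 KO PBS and 32.9 and 28.7 in JNK3 KO NMDA, a difference of 1.65 (SE 0.19, adjusted p = 9.1e-05), and *Aifm1*, apoptosis-inducing factor, differed by 1.36 (SE 0.24, adjusted p = 0.0013). Both were still called after length correction. *Casp2*, the lower member, was at -1.76. On the protective side, *Xiap*, an inhibitor of caspases, was listed at 47 and 46.7 FPKM in WT PBS, 10.8 and 10.6 in WT NMDA, 40.6 and 42.1 in JNK3 KO PBS and 52.1 and 51.6 in JNK3 KO NMDA, a difference of -2.45 (SE 0.086, adjusted p = 3.0e-07), and -1.09 length-corrected. *Bcl2l1*, for BCL-XL, differed by 0.36 (95% confidence interval -0.09 to 0.80) and *Mcl1* by 0.29 (95% confidence interval 0.0046 to 0.58). *Bcl2a1b*, the anti-apoptotic gene of myeloid cells, was higher by 2.79, but its near-identical copies share reads. *Ing4* and *Pdcd2*, further genes tied to apoptosis by the study, were higher by 1.09 and 1.88, and *Dedd2* was not called at 0.84, though it was without WT NMDA replicate 2 (1.06). None of these 3 kept the same call after length correction, when *Ing4* was 0.52, *Pdcd2* 0.85 and *Dedd2* 1.17, the latter now called.

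RGC markers fell after NMDA in both genotypes. Of 20 RGC genes 12 fell in WT and 11 in JNK3 KO, and the median response was -1.55 in WT and -1.55 in JNK3 KO. The difference was called higher for 3 (15%, against 15.5% of all genes), lower for 2 and not called for 15, with a median of 0.095 that was -0.47 on the TPM scale and between -0.072 and 0.18 with 1 library left out. *Rbpms*, an RNA-binding protein found in all RGCs, was listed at 16.5 and 17.3 FPKM in WT PBS, 4.57 and 7.84 in WT NMDA, 13.2 and 13.7 in JNK3 KO PBS and 4.02 and 4.49 in JNK3 KO NMDA, a difference of 0.16 (95% confidence interval -0.97 to 1.3). *Nefl*, the light neurofilament of thick axons, was at 162 and 160.2 FPKM in WT PBS, 27.7 and 25.5 in WT NMDA, 141 and 138 in JNK3 KO PBS and 32.6 and 32.3 in JNK3 KO NMDA. It fell by 2.60 in WT and by 2.10 in JNK3 KO on the log2 scale, and its difference was -0.50 (95% confidence interval -0.74 to -0.25). *Nrn1*, neuritin, gave 0.32 (95% confidence interval -0.34 to 0.99), *Nefm* -0.22 (95% confidence interval -0.65 to 0.21) and *Pou4f1*, the transcription factor BRN3A, -0.73 (95% confidence interval -2.81 to 1.35). In these 5 genes the NMDA libraries of both genotypes lay below all PBS libraries. The intervals of *Nefl*, *Nefm* and *Nrn1* exclude a difference of 1, and those of *Rbpms* and *Pou4f1* do not.

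A set of RGC and axonal genes was called as falling in JNK3 KO only, on the deposited scale. *Thy1*, a surface protein of RGCs, was listed at 142 and 145 FPKM in WT PBS, 136 and 154 in WT NMDA, 181 and 152 in JNK3 KO PBS and 38.6 and 39 in JNK3 KO NMDA, a difference of 2.10 (SE 0.13, adjusted p = 2.8e-06). *Stmn2*, stathmin-2 of growing axons, was at 44.4 and 47.8 FPKM in WT PBS, 66.6 and 75.5 in WT NMDA, 51.4 and 46.7 in JNK3 KO PBS and 19.7 and 19 in JNK3 KO NMDA, a difference of 1.96 (SE 0.23, adjusted p = 9.9e-05). *Sncg*, gamma-synuclein, was at 128 and 145 FPKM in WT PBS, 112 and 116 in WT NMDA, 135 and 129.6 in JNK3 KO PBS and 29.4 and 29.7 in JNK3 KO NMDA, a difference of 1.90 (SE 0.097, adjusted p = 9.7e-07). In all 3 the JNK3 KO NMDA libraries lay below the other 6, and the WT responses of 0.011, 0.62 and -0.26 were not called. Length-corrected, the WT responses were -0.62 for *Thy1*, 0.38 for *Stmn2* and -1.09 for *Sncg*. Those of JNK3 KO were then -1.955, -1.249 and -1.965, so *Thy1* and *Sncg* had negative responses in both genotypes on that scale. *Gap43*, of the axonal growth cone, did the same, with 28 and 29.5 FPKM in JNK3 KO NMDA and 60.4 to 67.7 in the others. Its length-corrected responses were -0.53 in WT and -0.975 in JNK3 KO. *Calb2*, the calcium-binding protein calretinin of amacrine cells and RGCs, fell in both genotypes and further in JNK3 KO, with 265 and 285 FPKM in WT PBS, 130.1 and 132 in WT NMDA, 297 and 285 in JNK3 KO PBS and 57.4 and 55.3 in JNK3 KO NMDA. After length correction *Thy1* and *Stmn2* were still called (1.33 and 1.63) and *Sncg* (0.87), *Gap43* (0.44) and *Calb2* (0.66) were not. The summed level of the list was 831 and 864 FPKM in WT PBS, 493 and 513 in WT NMDA, 836 and 799 in JNK3 KO PBS and 264 and 263 in JNK3 KO NMDA, lowest in JNK3 KO NMDA.

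**Figure D3:**
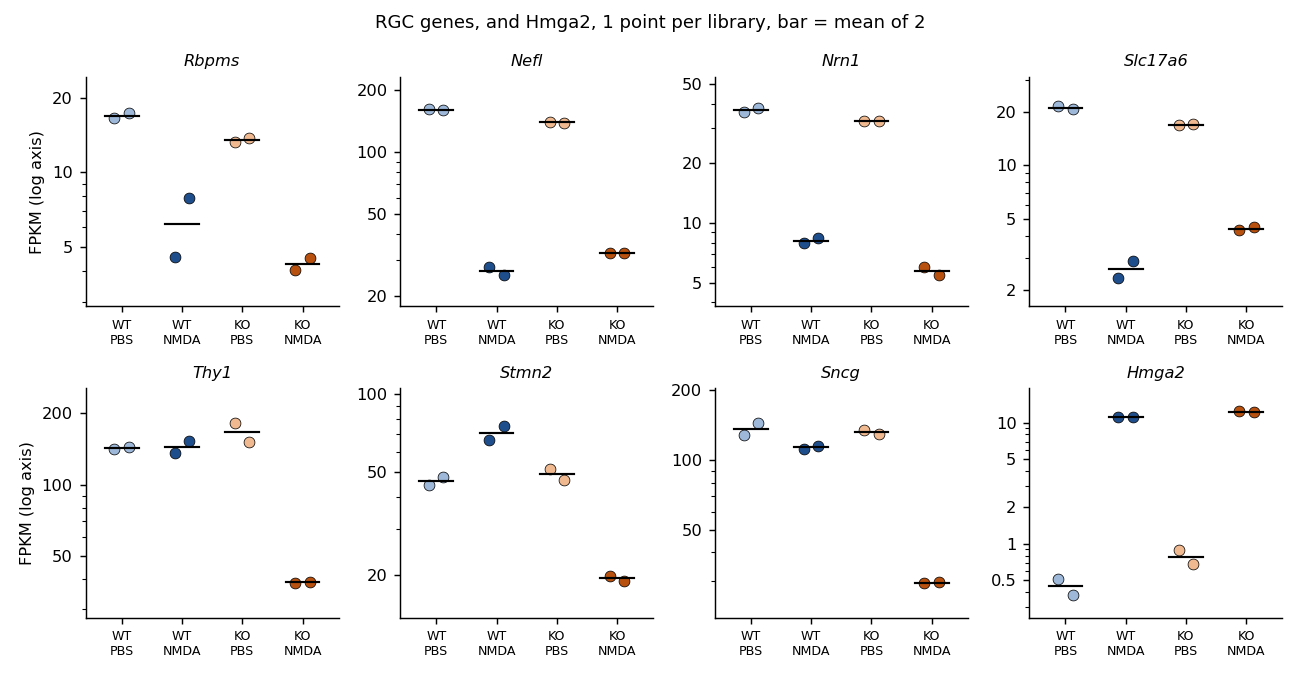
FPKM on log axes of 7 RGC genes and of *Hmga2* in the 8 libraries, with WT in blue and JNK3 KO (KO) in orange, paler for PBS; each point is a library and each bar the mean of 2. *Rbpms*, *Nefl*, *Nrn1* and *Slc17a6* are lower after NMDA in both genotypes, *Thy1*, *Stmn2* and *Sncg* are low in JNK3 KO NMDA alone, and *Hmga2* is higher after NMDA in both.

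The other retinal neurons were described by lists of their markers. Of 20 amacrine genes 11 fell in WT and 5 in JNK3 KO. The difference was higher for 2 and lower for 8 (40%, against 19.9% of all genes), with a median of -0.75. After length correction 1 was higher and 2 were lower, where 8.95% of all genes were lower, and the median was -0.46. *Gad1*, which makes GABA, was listed at 108 and 105 FPKM in WT PBS, 35.7 and 36.5 in WT NMDA, 88.8 and 92.8 in JNK3 KO PBS and 71.7 and 75.3 in JNK3 KO NMDA, a difference of -1.25 (SE 0.17, adjusted p = 2.1e-04). *Tfap2b*, an amacrine transcription factor, was at 39.9 and 37.4 FPKM in WT PBS, 11.8 and 9.85 in WT NMDA, 28.8 and 28.4 in JNK3 KO PBS and 33.5 and 34.6 in JNK3 KO NMDA, a difference of -2.08 (SE 0.14, adjusted p = 3.7e-06). After length correction *Gad1* was -0.77 and *Tfap2b* -0.95, neither of them called. *Chat*, the acetylcholine enzyme of starburst amacrine cells, fell in both genotypes, with 6.35 and 5.16 FPKM in WT PBS, 1.33 and 0.49 in WT NMDA, 5.58 and 5.18 in JNK3 KO PBS and 1.1 and 1.11 in JNK3 KO NMDA, a difference of -0.48 (95% confidence interval -1.95 to 0.99). *Npy*, neuropeptide Y, rose in WT alone, with 28.7 and 26.5 FPKM in WT PBS, 132 and 112 in WT NMDA, 32.6 and 28.1 in JNK3 KO PBS and 26.9 and 26.2 in JNK3 KO NMDA, a difference of 2.32 (SE 0.21, adjusted p = 1.9e-05).

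Of 21 bipolar genes 2 were higher and 8 lower, and after length correction 2 and 4, with a median of -0.67 that became -0.11. Of 9 horizontal cell genes 3 were lower, and 1 after length correction. There, length correction turned the median from -1.44 to 0.28. *Trpm1*, the channel that opens in ON bipolar cells when glutamate falls, was listed at 89 and 81.7 FPKM in WT PBS, 24.3 and 25.6 in WT NMDA, 61.8 and 61 in JNK3 KO PBS and 91.2 and 90.7 in JNK3 KO NMDA, a difference of -2.34 (SE 0.095, adjusted p = 4.1e-07). *Lrit3*, a synaptic protein needed to place that channel, differed by -3.38 (SE 0.23, adjusted p = 4.5e-06). *Gng13*, a G protein subunit of the same cells, went the other way, with 225 and 214 FPKM in WT PBS, 960.0 and 935 in WT NMDA, 271 and 257 in JNK3 KO PBS and 217 and 221 in JNK3 KO NMDA, a difference of 2.38 (SE 0.15, adjusted p = 2.4e-06).

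Photoreceptor genes were also split. Of 25 rod genes 7 were higher and 3 lower, with a median of 0.67 (-0.37 after quantile normalization, 0.81 length-corrected). *Rgs9*, which ends the light response by speeding up transducin, was listed at 217 and 197 FPKM in WT PBS, 11.3 and 19.3 in WT NMDA, 164 and 168 in JNK3 KO PBS and 212 and 209 in JNK3 KO NMDA. Its difference of -4.15 (SE 0.27, adjusted p = 3.2e-06) was the lowest of all protein-coding genes above 1 FPKM in the 4 groups, and length correction left -4.02. *Gucy2f*, a guanylate cyclase that restores cGMP after light, was at 19.6 and 18.4 FPKM in WT PBS, 1.37 and 2.02 in WT NMDA, 14.2 and 14.8 in JNK3 KO PBS and 21.5 and 21.4 in JNK3 KO NMDA, a difference of -3.999 (SE 0.22, adjusted p = 1.2e-06). *Guca1a*, the calcium sensor of that cyclase, moved the other way, with 698 and 725 FPKM in WT PBS, 1731 and 1759 in WT NMDA, 936 and 918 in JNK3 KO PBS and 602 and 585 in JNK3 KO NMDA, a difference of 1.94 (SE 0.07, adjusted p = 3.4e-07). *Gngt1*, a transducin subunit, differed likewise, by 1.83. Neither was called after length correction. Of 15 cone genes 5 were higher and 3 lower, and after length correction 3 and 0, with a median of 0.53 that became 0.20. *Gngt2*, the cone transducin subunit, was at 2.64, and *Slc24a2* at -2.21, which length correction brought to -0.20, not called.

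Called genes of the synaptic and channel lists were lower, and fewer were called lower after length correction. Of 16 ionotropic glutamate receptor genes 8 were lower and none higher, with a median of -1.17, and after length correction 1 was lower and 2 were higher, with a median of 0.14. *Gria2*, the AMPA receptor subunit that blocks calcium entry, was the exception, listed at 33.4 and 31.7 FPKM in WT PBS, 3.88 and 3.62 in WT NMDA, 24.3 and 26.7 in JNK3 KO PBS and 23.4 and 22.6 in JNK3 KO NMDA, a difference of -2.94 (SE 0.15, adjusted p = 1.1e-06) and of -1.69 after correction. *Grin2b*, a subunit of the NMDA receptor, was at -2.35, but 0.62 after correction. Of 60 potassium channel genes 26 were lower, and after correction 6 were lower and 4 higher. Of 24 calcium channel genes 8 were lower, and after correction 5 were lower and 1 higher. The corrected medians were 0.017 and 0.12, from -0.83 and -0.66. Voltage-gated sodium channels fell in WT in 9 of 10 and in JNK3 KO in 2 of 10, and 5 had a lower difference (2 after correction). *Scn1a*, which carries fast spikes, was listed at 13.6 and 12.9 FPKM in WT PBS, 0.5 and 0.69 in WT NMDA, 8.69 and 9.71 in JNK3 KO PBS and 5.64 and 5.13 in JNK3 KO NMDA, a difference of -3.51 (SE 0.26, adjusted p = 7.1e-06), and -1.82 length-corrected. Of 28 presynaptic genes 9 were lower and none higher, and after correction 1 was lower and 3 were higher. *Snap25*, of the vesicle fusion machine, was the 1 still lower, with 636 and 627 FPKM in WT PBS, 182 and 185 in WT NMDA, 549 and 587 in JNK3 KO PBS and 475 and 471 in JNK3 KO NMDA, a difference of -1.52 (SE 0.057, adjusted p = 3.5e-07).

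Clustered protocadherins, adhesion proteins that give each neuron an identity of its own, had the lowest median of the lists as deposited, whereas genes of mitochondrial DNA were lower after length correction and after quantile normalization. Of 53 tested, 42 were lower and 1 higher, with a median of -2.32, and after length correction 20 were lower and 1 higher, with a median of -1.32. In WT 46 fell after NMDA, and in JNK3 KO none fell and 1 rose. *Pcdhb19* was listed at 4.78 and 4.18 FPKM in WT PBS, 0.54 and 0.67 in WT NMDA, 2.51 and 2.42 in JNK3 KO PBS and 4.91 and 4.62 in JNK3 KO NMDA, a difference of -3.63 (SE 0.31, adjusted p = 1.4e-05). *Pcdhb16* was the 1 that rose in JNK3 KO, with 4.64 and 3.9 FPKM in WT PBS, 0.59 and 0.99 in WT NMDA, 2.09 and 3.01 in JNK3 KO PBS and 5.28 and 5.35 in JNK3 KO NMDA. *Pcdhgc4* was the exception, with 9.8 and 9.32 FPKM in WT PBS, 70.1 and 66.7 in WT NMDA, 17 and 8.34 in JNK3 KO PBS and 6.02 and 5.85 in JNK3 KO NMDA, a difference of 3.82 (SE 0.39, adjusted p = 4.0e-05). The genes of the gamma cluster share their last exons, so how the estimation split reads among them is uncertain.

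Müller glia, the radial glia of the retina, showed 8 lower and no higher genes of 18, with a median of -0.51 (-0.47 length-corrected, when 2 were lower). *Aqp4*, the water channel of their endfeet, was listed at 22.9 and 21.6 FPKM in WT PBS, 3.05 and 3.46 in WT NMDA, 15.9 and 16.2 in JNK3 KO PBS and 19.8 and 19.8 in JNK3 KO NMDA, a difference of -3.04 (SE 0.14, adjusted p = 5.8e-07). *Slc1a3*, the transporter that clears glutamate, was at 70.2 and 69.3 FPKM in WT PBS, 24.6 and 26.2 in WT NMDA, 67.4 and 69.2 in JNK3 KO PBS and 83.6 and 84.7 in JNK3 KO NMDA, a difference of -1.75 (SE 0.078, adjusted p = 5.6e-07), and -0.82 length-corrected, not called. For both genes the WT NMDA libraries lay below the other 6. *Glul* differed by 0.31 and was not called. The gliosis list had no common direction as deposited, with 6 higher and 4 lower of 24 and a median of 0.0066. After length correction 9 were higher, against 8.47% of all genes, and 1 was lower, with a median of 0.49. *Gfap*, the filament by which gliosis is usually scored, gave -0.27 (95% confidence interval -0.52 to -0.03). *Timp1*, a secreted inhibitor of matrix proteases, was listed at 178 and 182 FPKM in WT PBS, 145 and 142 in WT NMDA, 211 and 211 in JNK3 KO PBS and 18.2 and 18.4 in JNK3 KO NMDA, a difference of 3.19 (SE 0.12, adjusted p = 3.4e-07). Only its JNK3 KO response was called as deposited. Length-corrected, the response was -1.16 in WT and -3.33 in JNK3 KO. *Lcn2*, lipocalin-2, which is made by both glia and neutrophils, was at 774 and 805 FPKM in WT PBS, 934 and 873 in WT NMDA, 586 and 563 in JNK3 KO PBS and 129.7 and 137 in JNK3 KO NMDA, a difference of 2.30 (SE 0.067, adjusted p = 2.6e-07). *Vim*, vimentin, rose in WT by 1.72, and its JNK3 KO response of 0.87 was not called. *Cd44*, a hyaluronan receptor, rose in JNK3 KO alone, with 20.4 and 18.8 FPKM in WT PBS, 18.9 and 19.6 in WT NMDA, 15.6 and 17.1 in JNK3 KO PBS and 43.5 and 42.9 in JNK3 KO NMDA, a difference of -1.42 (SE 0.15, adjusted p = 4.8e-05), and -0.50 length-corrected, not called. Of 16 crystallin genes 7 were higher and 1 lower, with a median of 0.93, and of -0.093 after length correction.

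The largest classes by number were housekeeping genes with short transcripts. Of 86 cytosolic ribosomal protein genes 82 were higher, with a median of 2.04, and 53 after length correction, with a median of 1.10. In WT 83 rose, and in JNK3 KO limma called 0, with 24 at an unadjusted p under 0.05. *Rpl41*, which encodes a ribosomal protein, was listed at 676 and 719 FPKM in WT PBS, 4634 and 5064 in WT NMDA, 1037 and 961 in JNK3 KO PBS and 1065 and 1012 in JNK3 KO NMDA, a difference of 2.74 (SE 0.088, adjusted p = 2.6e-07). Of 77 nuclear genes for respiratory chain subunits 67 were higher (31 after correction), of 77 mitochondrial ribosomal protein genes 60 (13), and of 34 proteasome subunit genes 20 (5), and in none of these lists was a gene lower. Their medians were 1.80, 1.43 and 1.15, and after correction 0.93, 0.60 and 0.58. *Atp5e*, a subunit of ATP synthase, was at 208 and 229.7 FPKM in WT PBS, 1115 and 1268 in WT NMDA, 314 and 278 in JNK3 KO PBS and 252 and 242 in JNK3 KO NMDA, a difference of 2.7 (SE 0.13, adjusted p = 8.5e-07). Quantile normalization, which forces all libraries to the same distribution, brought the ribosomal and respiratory medians to 0.65 and 0.82.

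Genes of mitochondrial DNA went against the nuclear genes for the same complexes. Of 13, 6 were lower and 1 higher, with a median of -0.97, and after length correction 10 were lower, with a median of -1.80. Their sum was 45000.0 and 45330.0 FPKM in WT PBS, 22950.0 and 23020.0 in WT NMDA, 35960.0 and 38810.0 in JNK3 KO PBS and 55540.0 and 52680.0 in JNK3 KO NMDA, so that the WT NMDA libraries were the lowest and the JNK3 KO NMDA libraries the highest. *mt-Co1*, of cytochrome c oxidase, was listed at 10592 and 10917 FPKM in WT PBS, 3302 and 3163 in WT NMDA, 8644 and 9646 in JNK3 KO PBS and 9351 and 9228 in JNK3 KO NMDA, a difference of -1.76 (SE 0.071, adjusted p = 4.1e-07). *mt-Atp8* moved most, with 8119.9 and 7794 FPKM in WT PBS, 2005 and 1913 in WT NMDA, 5089 and 5424 in JNK3 KO PBS and 18848 and 18104 in JNK3 KO NMDA, a difference of -3.84 (SE 0.17, adjusted p = 5.4e-07), but it overlaps *mt-Atp6* and the split of reads between them is uncertain.

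**Figure D4:**
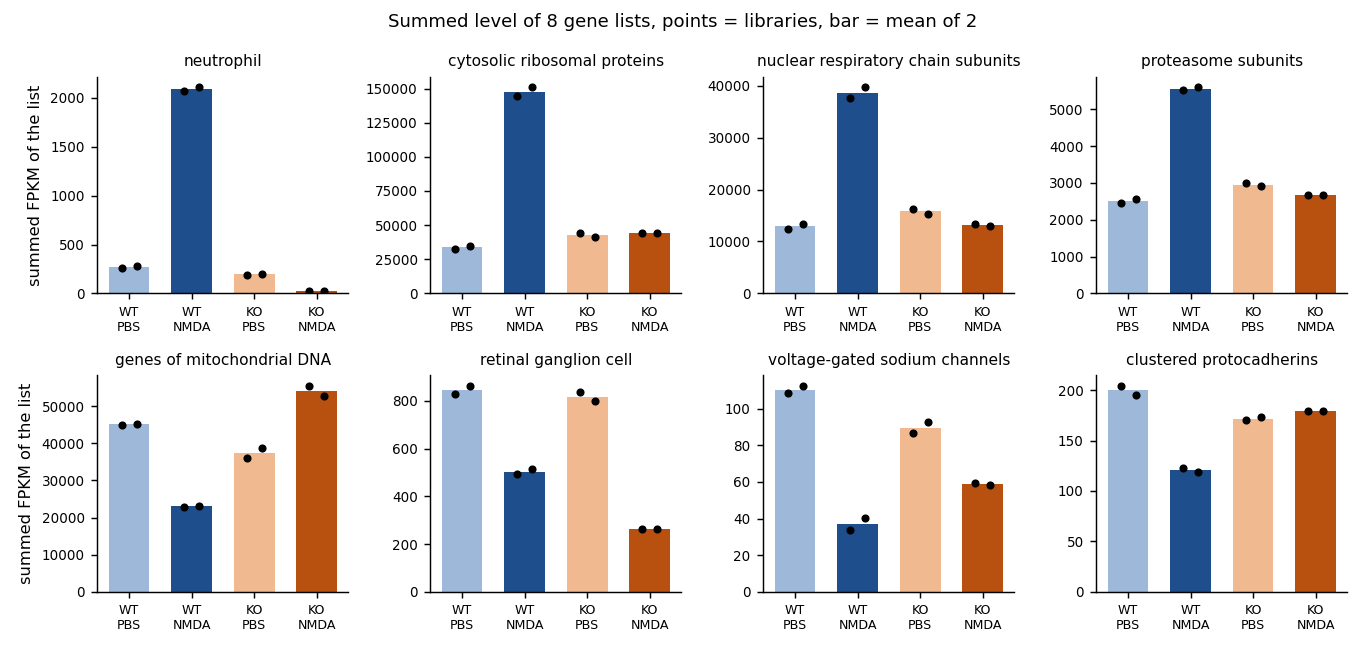
Summed FPKM of 8 gene lists in the 8 libraries (points) with the mean of 2 (bars), WT in blue and JNK3 KO (KO) in orange, paler for PBS. Ribosomal, respiratory chain and proteasome genes are high in WT NMDA alone, sodium channel and protocadherin genes are lowest there, neutrophil genes are highest in WT NMDA and lowest in JNK3 KO NMDA, and genes of mitochondrial DNA run the other way.

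Metal-binding and antioxidant genes included abundant members that were higher in WT NMDA than in the other groups. *Mt1*, *Mt2* and *Mt3* encode metallothioneins, small proteins that bind zinc and copper. *Mt2* was listed at 416 and 463 FPKM in WT PBS, 2166 and 2332 in WT NMDA, 446 and 383 in JNK3 KO PBS and 342 and 342 in JNK3 KO NMDA, a difference of 2.63 (SE 0.13, adjusted p = 9.7e-07). The other two gave 2.48 for *Mt1* and 2.94 for *Mt3*, and all 3 were still called after length correction (1.59, 1.82 and 2.10). *Gpx4*, the enzyme that protects lipids from ferroptosis, differed by 2.34 (SE 0.067, adjusted p = 2.6e-07), and *Fth1*, ferritin heavy chain, by 2.18 (SE 0.067, adjusted p = 2.6e-07). The list they belong to had 6 higher and 2 lower genes of 13, and the NRF2 list 4 and 1 of 17. Of 19 glycolysis genes 5 were higher, among them *Hk2*, hexokinase 2, at 1.72 (SE 0.12, adjusted p = 6.0e-06), with a list median of 0.89 that was -0.42 after quantile normalization. Cholesterol genes were split, with 4 higher and 6 lower of 21, for example *Pmvk* at 1.97 and *Hmgcs1* at -1.75. The circadian list had 1 higher and 6 lower of 19, led by *Clock* at -2.77 (SE 0.18, adjusted p = 3.8e-06), and -0.93 length-corrected, not called. Of 12 Krüppel-like factors 6 were lower (50%, against 19.9% of all genes), with *Klf12* at -3.48 (SE 0.32, adjusted p = 2.1e-05). Length correction brought the list's median from -1.10 to -0.33. Of 15 axon injury and regeneration genes 9 were higher and 3 lower, and *Sprr1a*, a small proline-rich protein of regenerating axons, led with 0.73 and 0.55 FPKM in WT PBS, 4.07 and 6.93 in WT NMDA, 1.17 and 1.3 in JNK3 KO PBS and 0.49 and 0.81 in JNK3 KO NMDA. Of 20 cell cycle genes 4 rose in WT and 1 in JNK3 KO. For their difference limma called 0, with 4 at an unadjusted p under 0.05. After length correction the higher and lower counts were 5 and 1 for the metallothionein list, 3 and 1 for NRF2 and 3 and 0 for glycolysis. Cholesterol genes then had 2 and 1, and the circadian list 0 and 1. Krüppel-like factors had 0 and 1, and axon injury genes 4 and 1. Of all genes 8.47% were higher and 8.95% lower after this correction.

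The remaining lists follow. DNA repair had 6 higher and 7 lower of 31, autophagy 3 and 3 of 27, histone deacetylases and sirtuins 1 and 3 of 18, and heat shock proteins 3 and 1 of 18. Vascular endothelium had 4 and 3 of 17, with *Egfl7*, a secreted endothelial protein, at 1.91 and *Kdr*, the main VEGF receptor, at -2.25. Length correction brought these to 0.88 and -0.81, neither of them called. Activity-induced genes had 2 and 2 of 15, pigment epithelium 0 and 1 of 7, and anti-apoptotic genes 3 and 2 of 13. After length correction the counts were 3 and 1 for DNA repair, 1 and 2 for autophagy, 1 and 2 for histone deacetylases and sirtuins, 1 and 1 for heat shock proteins, 2 and 1 for vascular endothelium, 2 and 1 for activity-induced genes, 0 and 2 for pigment epithelium and 1 and 1 for anti-apoptotic genes. Of 5 genes of the sex chromosomes 3 were lower, all on Y. *Uty* was listed at 8.74 and 8.44 FPKM in WT PBS, 0.56 and 0.65 in WT NMDA, 5.16 and 6.89 in JNK3 KO PBS and 9.43 and 9.09 in JNK3 KO NMDA, so all 8 libraries held RNA of males, with the least in WT NMDA.

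**Figure D5:**
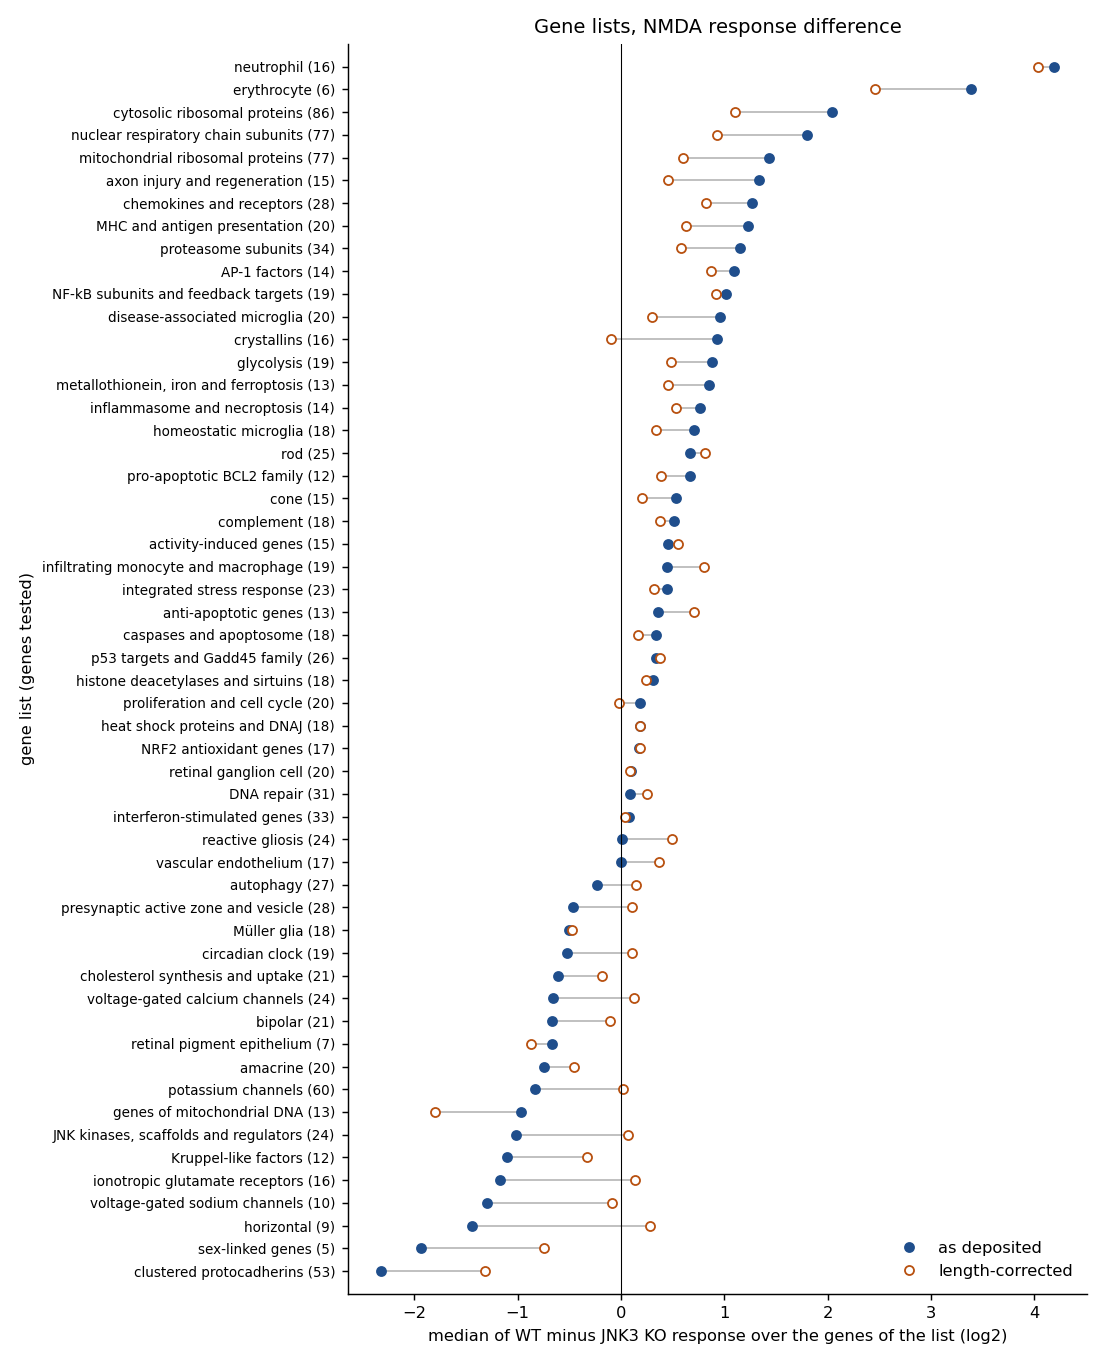
Median over each gene list of the difference between the WT and JNK3 KO responses (log2), for the 54 lists with at least 5 genes tested, as deposited (filled) and length-corrected (open), joined by a line; the number tested stands in brackets. Neutrophil genes lead at 4.19 and stay at 4.04, ribosomal protein genes go from 2.04 to 1.10, and protocadherins end the order at -2.32 and -1.32.

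Some genes responded in both genotypes. Those named next were chosen after their values were seen. Of the 50 genes that rose in both, 13 had a called difference, and of the 92 that fell in both 14 had one. *Hmga2*, a chromatin protein of embryonic cells, was listed at 0.51 and 0.38 FPKM in WT PBS, 11.1 and 11.2 in WT NMDA, 0.89 and 0.68 in JNK3 KO PBS and 12.4 and 12.3 in JNK3 KO NMDA, a difference of 0.56 (95% confidence interval -0.28 to 1.40). Length correction brought it to 1.33, when it was called. *Myc* was at 1.75 and 1.48 FPKM in WT PBS, 11.6 and 12.8 in WT NMDA, 1.83 and 1.53 in JNK3 KO PBS and 7.6 and 8.45 in JNK3 KO NMDA, a difference of 0.65 (95% confidence interval 0.02 to 1.28). *Ccnd1*, cyclin D1, rose in both, with 13.2 and 13.2 FPKM in WT PBS, 39.4 and 41.5 in WT NMDA, 9.46 and 9.2 in JNK3 KO PBS and 48.9 and 50.6 in JNK3 KO NMDA, a difference of -0.80 (95% confidence interval -1.38 to -0.22). *Spp1*, osteopontin, gave 0.026 (95% confidence interval -0.25 to 0.31). Among the falling genes, *Nkd1*, an inhibitor of WNT signalling, was at 27.6 and 27.8 FPKM in WT PBS, 9.46 and 7.71 in WT NMDA, 21.9 and 22.1 in JNK3 KO PBS and 6.95 and 6.72 in JNK3 KO NMDA, a difference of -0.015 (95% confidence interval -0.46 to 0.43), and *Serpina3n*, an acute-phase protease inhibitor, gave -0.11 (95% confidence interval -0.26 to 0.037). For these genes NMDA and PBS libraries did not overlap in either genotype.

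At the other end, 42 genes rose in WT and fell in JNK3 KO, and 26 did the reverse. All 42 of the former and 24 of the latter were still called after length correction. The 42 include *S100a8*, *S100a9*, *Il1b*, *Saa3*, *Wfdc21*, *Ccl5*, *Clec4d* and *Tyrobp*. The 26 include *Kitl*, the ligand of the KIT receptor, listed at 5.48 and 5.52 FPKM in WT PBS, 1.74 and 1.56 in WT NMDA, 2.76 and 3.52 in JNK3 KO PBS and 9.98 and 9.37 in JNK3 KO NMDA, a difference of -3.28 (SE 0.27, adjusted p = 1.1e-05). *Neurod4*, a factor of developing retinal interneurons, was at 52.5 and 50.1 FPKM in WT PBS, 17.1 and 18.2 in WT NMDA, 37.6 and 38.8 in JNK3 KO PBS and 77.7 and 77.4 in JNK3 KO NMDA, a difference of -2.56 (SE 0.11, adjusted p = 4.3e-07). *Abca1*, which exports cholesterol, was at 6.58 and 6.47 FPKM in WT PBS, 1.45 and 1.82 in WT NMDA, 6.06 and 4.59 in JNK3 KO PBS and 11.1 and 11.6 in JNK3 KO NMDA, a difference of -3.03 (SE 0.23, adjusted p = 7.5e-06). Among protein-coding genes above 1 FPKM in all 4 groups, the 10 highest differences were those of *S100a9*, *S100a8*, *Saa3*, *H2ac18*, *Ccl2*, *Wfdc17*, *Sap25*, *Cd14*, *Ccl5* and *Clec4d*, from 7.30 down to 4.01. Of these *Wfdc17* had an adjusted p of 0.049 and passed 0.05 by little, and with any 1 of the 8 libraries left out it lost the call, at 4.04 to 4.32, as it did after length correction, at 3.33. Among the 10 lowest were those of *Rgs9*, *Gucy2f*, *Lactbl1*, *Arhgap5*, *Atrx*, *mt-Atp8*, *Arhgap32*, *Thsd7a* and *Slc8a1*, from -4.15 to -3.62. *Atrx*, a chromatin remodeller, was listed at 48.5 and 38.4 FPKM in WT PBS, 3.31 and 5.47 in WT NMDA, 29.9 and 40.1 in JNK3 KO PBS and 54.4 and 51.6 in JNK3 KO NMDA. These 9 had their lowest values in WT NMDA, and *mt-Atp8* was the 1 of them whose JNK3 KO response was called too.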

How the data were processed

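Retinal RNA-seq of mice (paired reads, oligo-dT-primed TruSeq libraries) was analysed from the deposited gene table of FPKM, which the authors made, by the submitters' processing notes, with STAR 2.7.1a and RSEM 1.3.3 on GRCm38.p6. FPKM carry no read counts, so the depth per sample is unknown and no counting error is given. The authors' transcript table, also of FPKM, was an alternative. Groups follow the labels, with 2 libraries each. Genes whose mean exceeded 1 FPKM in any of 6 groups were fitted as log2(FPKM + 0.1) with limma 3.58.1 in R 4.3.3 (6 group means over 12 libraries, 6 residual and 2.95 prior degrees of freedom, intensity trend), and p-values were adjusted by Benjamini-Hochberg over 16471 genes. Fold changes on this scale understate those of low genes. All tests were two-sided. For the length correction, a lowess curve (span 0.3) on the logarithm of spliced length (GENCODE M21, weighted by FPKM) was subtracted per library. The fit was tested on simulated data with known changes.

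The comparison, the lists and the genes were chosen with earlier results of these data known. Named were genes of the study's question, the 10 highest and 10 lowest protein-coding differences among genes above 1 FPKM in all 4 groups, up to 4 called genes per list and 13 markers. Some of these are not reported here. Chosen after their values were seen were Abca1, Calb2, Ccl3, Ccl7, Ccnd1, Cd44, Chat, Cryaa, Csf3r, Cx3cl1, Cxcl12, Cxcr2, Dusp1, Egfl7, Fosl1, Gap43, Gngt1, Hmga2, Kitl, Ly6c2, Map3k1, Map3k12, Mcl1, Nefl, Nefm, Neurod4, Nfkb1, Nkd1, Nrn1, Phgdh, Rela, Relb, Serpina3n, Slc17a6, Snap25, Spag9, Spp1, Vim and mt-Atp6. Promoters are RefSeq windows of GRCm38.p6. Proteins were not used here.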

Additional observations from a re-analysis of the deposited data

Results flagged for a closer look

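All results here stand out because the NMDA response differed between WT and JNK3 KO by limma's test of the difference itself. Of the 16471 genes, 5819 passed, 2546 higher and 3273 lower. Genes called in opposite directions in the genotypes numbered 42 that rose in WT and fell in JNK3 KO and 26 that did the reverse.

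Among the former, the differences on the log2 scale were 7.30 for *S100a9*, 6.95 for *Wfdc21*, 6.34 for *Il1b*, 6.14 for *S100a8* and 5.70 for *Saa3*, genes of neutrophils and of inflammation. *Ccl5* (4.02), *Clec4d* (4.01) and *Tyrobp* (2.90) belong to T cells and myeloid cells. Both libraries of WT NMDA lay above all PBS libraries and both of JNK3 KO NMDA below them for each of these genes. For *Wfdc21*, 1 JNK3 KO NMDA library was listed at 0, so its size rests on the pseudocount.

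Among the latter, the differences were -2.56 for *Neurod4*, -2.84 for *Trp53inp1*, -3.03 for *Abca1*, -3.28 for *Kitl*, -3.38 for *Pcdhb16* and -3.84 for *mt-Atp8*. The reads of *mt-Atp8* overlap those of *mt-Atp6*, listed at 522 and 504 FPKM in WT PBS, 795 and 832 in WT NMDA, 395 and 318 in JNK3 KO PBS and 482 and 448 in JNK3 KO NMDA. The part of blood content and of transcript length in these results was not tested beyond the length correction, after which all 14 genes named here were still called in the same direction.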

How the results depend on the processing

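The call of 5819 genes for the difference stayed within 1.5 times under every scaling, pseudocount, filter and spread tried at gene level, except after the length correction. That called 2866 genes for the difference (1394 higher, 1472 lower), 2156 of them among the 5819, 2994 for the WT response and 2744 for WT against JNK3 KO under NMDA, and with the replicate block as well 2826 (1373 higher, 1453 lower), 2973, 2732 and, under PBS, 23. The replicate block alone left 5780. Libraries with the same replicate number did not deviate together (correlations of -0.097 to 0.0061), so the numbers were not taken as pairs. On the TPM scale 1125 genes were higher and 5343 lower, and with protein-coding genes rescaled to their own sum 953 and 5152; the cause was not tested. The 38 genes under PBS became 24 after division by the 75th percentile, 61 with the spread of 8 libraries and 25 without the intensity trend. The transcript table, with more features tested, gave 11296 calls (7531 lower), 14232 for WT and 13898 under NMDA. Length correction turned *Grin2b* from -2.35 to 0.62, with or without the block, and quantile normalization turned *mt-Atp6* to -1.06. Leaving out 1 library at a time gave 5233 to 5620 calls for the difference, 2286 to 2463 of them higher and 2947 to 3202 lower, 5106 to 5561 for WT, 207 to 410 for JNK3 KO, 18 to 33 under PBS and 4986 to 5384 under NMDA, with fewer samples in each fit. The lowest PBS count came without JNK3 KO PBS replicate 1 (18), and the counts without WT PBS replicate 2, JNK3 KO NMDA replicate 1 and JNK3 KO NMDA replicate 2 were 21, 22 and 22. The JNK3 KO counts without JNK3 KO PBS replicates 1 and 2 and JNK3 KO NMDA replicates 1 and 2 were 218, 247, 228 and 207. Depth is unknown, and with 2 libraries per group low genes have wide intervals.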

Other observations

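The transcript table, which the report did not describe, was also split by GENCODE transcript class. Retained-intron transcripts, which keep part of an intron in the spliced RNA, had lower differences than protein-coding transcripts of the same length class. Under 1 kb their median difference was -1.18 (6516 transcripts), against -0.16 for protein-coding ones (6810), and from 1 to 2 kb -0.87 (1274) against 0.50 (5762). From 2 to 4 kb it was -1.42 (1587) against -0.46 (9272), and over 4 kb -2.14 (477) against -1.45 (6411). These medians are over transcripts, which are not independent replicates, and how reads were split among transcripts of a gene is an estimate. The shares of intronic or unprocessed RNA in the libraries were not tested.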
